A study of Mus musculus with 8 samples.

Results

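Expression of 10 genes of lysosomes and lipid-laden (foamy) macrophages was described in mouse lung RNA: Ctss, Ctsk, Ctsd, Gpnmb, Cd68, Lyz2, Trem2, Spp1, Atp6v0d2 and Marco. The members were chosen by name, as the rows of the count table whose Entrez identifiers map to these symbols, and all 10 were found among its 23469 genes. Lungs came from C57BL/6 wild type (WT) mice and DDAH1-transgenic mice, which overexpress the enzyme that degrades the nitric oxide synthase inhibitor ADMA. The mice received intratracheal PBS (50 µl), or the same volume with 100 µg of house dust mite extract (HDM), on 3 occasions a week over 3 weeks, and lungs were taken 24 hours after the final dose. The sources used here do not give the promoter that drives the transgene, the age or the sex of the mice. Equal amounts of RNA from 4 mice were pooled in each of the 4 groups (WT PBS, DDAH1-transgenic PBS, WT HDM and DDAH1-transgenic HDM), and each pool was sequenced as 2 libraries. Every SD, standard error and p-value below therefore covers the spread between 2 libraries of 1 pool and not the spread between mice.

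Lysosomes digest proteins, lipids and sugars with acid hydrolases, and a proton pump, the vacuolar ATPase, keeps them acidic. Macrophages hold many lysosomes because they take up dying cells, microbes and, in the lung, surfactant lipid. A macrophage that stores lipid in droplets looks foamy, and such cells are known for high expression of lipid-sensing receptors, of the lysosomal glycoprotein GPNMB and of secreted osteopontin. The transcription factors TFEB, TFE3 and MITF switch on many lysosomal genes through the CLEAR element, an extended E-box. The 10 genes cover several roles. Ctss, Ctsk and Ctsd encode the proteases cathepsin S, K and D, and Lyz2 encodes lysozyme. Cd68 and Gpnmb encode membrane glycoproteins of lysosomes and late endosomes, and Atp6v0d2 encodes a vacuolar ATPase subunit that macrophages and osteoclasts use. Trem2 encodes a lipid-sensing receptor, Marco a scavenger receptor of alveolar macrophages, and Spp1 the secreted protein osteopontin.

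The promoters of Ctsd, Ctss and Gpnmb are printed because the genotype differences of these 3 genes were not the same under PBS and HDM (below). The stretches hold 250 bases before and 30 bases after the start of the RefSeq gene (GRCm38.p6), 5′ to 3′ on the strand of the gene, with matched motif letters in capitals. Ctsd lies on the minus strand and its stretch at chr7:142387798-142388077, Ctss on the plus strand at chr3:95526536-95526815, and Gpnmb on the plus strand at chr6:49036268-49036547.
Ctsd: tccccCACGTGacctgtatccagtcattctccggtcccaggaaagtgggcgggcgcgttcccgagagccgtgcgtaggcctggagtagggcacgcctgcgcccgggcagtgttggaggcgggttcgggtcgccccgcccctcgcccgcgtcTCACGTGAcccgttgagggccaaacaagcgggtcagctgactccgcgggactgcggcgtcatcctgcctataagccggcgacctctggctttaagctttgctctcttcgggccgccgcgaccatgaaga
Ctss: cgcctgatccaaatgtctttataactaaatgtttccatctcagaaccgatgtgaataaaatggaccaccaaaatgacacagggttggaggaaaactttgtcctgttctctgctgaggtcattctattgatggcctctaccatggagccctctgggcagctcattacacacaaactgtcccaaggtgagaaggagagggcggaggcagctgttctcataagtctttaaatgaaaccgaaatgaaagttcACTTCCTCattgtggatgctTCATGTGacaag
Gpnmb: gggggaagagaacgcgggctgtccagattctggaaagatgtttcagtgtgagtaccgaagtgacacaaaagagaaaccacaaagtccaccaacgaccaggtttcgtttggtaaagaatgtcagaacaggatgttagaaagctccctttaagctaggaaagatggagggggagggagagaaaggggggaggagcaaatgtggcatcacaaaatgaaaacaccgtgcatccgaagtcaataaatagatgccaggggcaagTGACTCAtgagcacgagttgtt
RefSeq gave a promoter window of 300 bases (250 before and 50 after the start) for 9 of the 10 members, all but Atp6v0d2. Both strands of these windows, and of those of 27025 genes, were searched for the E-box core CACGTG, the CLEAR core TCACGTGA, the M-box TCATGTG, a PU.1 site GAGGAAGT and the AP-1 site TGAGTCA. The CLEAR core contains the E-box core, and so every match of the first is also a match of the second. Ctsd was the 1 member with the CLEAR core, which 1.12% of genes hold, and its first base lay 99 bases before the start. Ctsd held a second E-box core 245 bases before the start, and 8.09% of genes hold at least 1 E-box core. Ctss held the M-box 18 bases after the start (4.31% of genes) and the PU.1 site on the opposite strand, beginning 2 bases before the start (3.69% of genes). Gpnmb held the AP-1 site on the opposite strand, 8 bases after the start (5.95% of genes). Of the promoters not printed, that of Cd68 held the AP-1 site at 149 and 24 bases before the start, and that of Spp1 held the PU.1 site at 113 bases before it. A match is a run of letters and was not tested as a bound site.

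Total counts lay between 5694928 and 11929374 per library, with replicate 1 of DDAH1-transgenic HDM at the lower end. The most abundant gene took 8.58% and 9.37% of the counts in DDAH1-transgenic HDM libraries and 14.8% to 21.8% in the other groups. Values are CPM, counts scaled to a common library size, with all 8 libraries scaled together by TMM, a method that sets library sizes by the bulk of genes. The mouse gene Ddah1 was at 47.7 and 34.3 CPM in WT PBS and 76.9 and 53.8 CPM in DDAH1-transgenic PBS libraries. It was at 43.1 and 44.7 CPM in WT HDM and 34.9 and 33.4 CPM in DDAH1-transgenic HDM libraries. Neither difference passed the test (log2 fold change 0.66, adjusted p = 0.358 under PBS and -0.32, adjusted p = 0.637 under HDM, by edgeR). For Ddah1 the libraries labelled DDAH1-transgenic HDM lay below the WT HDM libraries, by a difference that did not pass the test. Reads were placed on the mouse genome, and the paper does not give the species of the transgene. Counts of Ddah1 may therefore miss the transgene and do not test the labels. Directions below follow the labels. Xist, the RNA that silences 1 X chromosome in female cells, lay between 11.3 and 20.8 CPM in the 4 PBS libraries and between 2048 and 3040 CPM in the 4 HDM libraries. The Y-linked gene Ddx3y was at 58.7 to 69.0 CPM under PBS, while each HDM library held only 2 or 3 counts of it. By these 2 genes the PBS pools read as male and the HDM pools as female. HDM treatment and sex thus went together in both genotypes and cannot be told apart in any comparison of HDM with PBS below. This includes the contrast between the genotype differences under HDM and under PBS. The genotypes compared under HDM both read as female and those compared under PBS both as male. The tissue is whole lung, and fewer cells of a type cannot be told apart from less RNA per cell. The paper describes a methacholine test of the airways, after which blood, lavage samples and lung were taken. Whether the lungs sequenced here had been lavaged is not stated, and lavage takes cells from the airspace. Pan-macrophage genes were present in every group: the 7 general macrophage markers summed to 343 to 399 CPM in WT PBS, 283 to 339 in DDAH1-transgenic PBS, 659 to 747 in WT HDM and 633 to 646 in DDAH1-transgenic HDM libraries. The 12 alveolar macrophage markers summed to 785 to 816, 936 to 939, 9771 to 10066 and 3946 to 4988 CPM in the same order. Most of the last 2 sums was 1 gene, the chitinase-like Chil3, without which they were 830.3 to 851 and 619 to 680.0 CPM. Cd5l, another of these markers, had no count in any PBS library.

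The 3 cathepsins differed in level and in pattern. Ctss, the cathepsin that trims the invariant chain in antigen-presenting cells, was at 166 and 155 CPM in the WT PBS libraries, 100.5 and 91.8 in DDAH1-transgenic PBS, 713 and 723 in WT HDM and 1460.2 and 1560.3 in DDAH1-transgenic HDM. No 2 groups overlapped for Ctss, and DDAH1-transgenic mice were the lowest group under PBS and the highest under HDM. Ctsd, an aspartic protease found in lysosomes of most cells, was at 338 and 337 CPM in WT PBS, 217 and 272 in DDAH1-transgenic PBS, 522 and 626 in WT HDM and 948 and 1290.3 in DDAH1-transgenic HDM libraries. Its groups also stood apart, in the same order as for Ctss. Ctsk, a collagen-degrading cathepsin that osteoclasts and fibroblasts also express, was at 9.14 and 6.12 CPM in WT PBS, 3.49 and 6.02 in DDAH1-transgenic PBS, 64.1 and 72.6 in WT HDM and 72.2 and 50.2 in DDAH1-transgenic HDM libraries. All HDM libraries lay above all PBS libraries for Ctsk, and the 2 genotypes overlapped under HDM. Of 5 fibroblast markers edgeR called 0 higher after HDM in either genotype, with 2 higher in WT mice at an unadjusted p under 0.05 and by DESeq2. It called 1 lower in WT and 2 in DDAH1-transgenic mice, led by Pdgfra at -0.84 (SE 0.17, adjusted p = 0.00965) and -0.94 (SE 0.20, adjusted p = 0.0102). In WT mice the length offset, described below, gave 1 higher and 2 lower. In the order of the groups above these markers summed to 668 to 679, 674 to 695, 683 to 685 and 499.7 to 568 CPM. Ctss and Ctsk are neighbours on chromosome 3 of GRCm38, Ctss from 95526786 to 95556405 and Ctsk from 95499210 to 95509387, and no 50-base stretch of their transcripts was found in another gene, although a pseudogene, Hmgb1-ps5, lies within the span of Ctss. Ctsd lies on chromosome 7 from 142375910 to 142387827, and 36.6% of its 50-base stretches are shared with Gm49369, a gene model over the same locus, so that its level is less certain.

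Lyz2 (chromosome 10 from 117277541 to 117282272) was by far the most abundant member, at 12272 and 11158 CPM in WT PBS, 11554 and 13056 in DDAH1-transgenic PBS, 8629.8 and 8785 in WT HDM and 8994 and 12763 in DDAH1-transgenic HDM libraries. The WT HDM libraries were the lowest, and the 2 DDAH1-transgenic HDM libraries were far apart. Lyz2 took 94.0% to 96.1% of the counts of the 10 genes in PBS libraries and 71.1% to 78.6% in HDM libraries, and the other 9 members summed to 714 to 738 CPM in WT PBS, 490.5 to 534 in DDAH1-transgenic PBS, 2355 to 2451 in WT HDM and 3655 to 3935 in DDAH1-transgenic HDM. Lyz2 is also a gene of alveolar type 2 cells and neutrophils, and 15.4% of its 50-base stretches are shared with Lyz1. The 7 alveolar type 2 markers summed to 19907 to 20134, 22416 to 27567, 16293 to 18007 and 17087 to 23170.5 CPM in the same order of groups. Like Lyz2 they were far apart in the 2 DDAH1-transgenic HDM libraries, and their part in the level of Lyz2 was not tested.

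Of the membrane glycoproteins, Gpnmb (chromosome 6 from 49036518 to 49058182) was at 47.6 and 49.3 CPM in WT PBS, 17.8 and 15.1 in DDAH1-transgenic PBS, 271 and 229 in WT HDM and 466 and 380.0 in DDAH1-transgenic HDM libraries. Like Ctss and Ctsd, it was lowest in DDAH1-transgenic PBS and highest in DDAH1-transgenic HDM libraries, with no overlap between groups. Cd68 (chromosome 11 from 69664213 to 69666170) was at 43.0 and 24.7 CPM in WT PBS, 24.4 and 33.3 in DDAH1-transgenic PBS, 117 and 100.5 in WT HDM and 76.8 and 77.6 in DDAH1-transgenic HDM libraries. Cd68 was higher in every HDM than in every PBS library, and under HDM it was the WT libraries that were the higher ones. The pump subunit Atp6v0d2 (chromosome 4 from 19876838 to 19922566) was at 54.9 and 71.2 CPM in WT PBS, 67.1 and 70.3 in DDAH1-transgenic PBS, 216 and 244 in WT HDM and 175 and 170.5 in DDAH1-transgenic HDM libraries. Under HDM it followed Cd68, with the WT libraries highest, and under PBS the genotypes overlapped.

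The receptors were among the rarest members. Trem2 (chromosome 17 from 48346401 to 48352276) was at 1.31 and 3.35 CPM in WT PBS, 0.599 and 0.106 in DDAH1-transgenic PBS, 11.97 and 12.2 in WT HDM and 17.1 and 34.8 in DDAH1-transgenic HDM libraries. The DDAH1-transgenic PBS values rest on 6 and 1 counts, so a fold change against this group is poorly bounded. Marco (chromosome 1 from 120474538 to 120505024) was at 8.24 and 7.59 CPM in WT PBS, 3.49 and 2.43 in DDAH1-transgenic PBS, 2.14 and 1.00 in WT HDM and 1.497 and 0.697 in DDAH1-transgenic HDM libraries, and it was the 1 member with its highest level in WT PBS libraries. Its mean was lowest in DDAH1-transgenic HDM libraries, which overlapped with WT HDM libraries. The WT HDM values rest on 24 and 10 counts and the DDAH1-transgenic HDM values on 10 and 9 counts. The secreted protein gene Spp1 (chromosome 5 from 104435111 to 104441053) was at 69.8 and 58.9 CPM in WT PBS, 56.5 and 42.4 in DDAH1-transgenic PBS, 437 and 442 in WT HDM and 439 and 370.2 in DDAH1-transgenic HDM libraries. Spp1 was higher in every HDM than in every PBS library, and the genotypes overlapped under HDM. A gene model over the same locus, Gm42793, shares 9.05% of the 50-base stretches of Spp1.

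**Figure D1:**
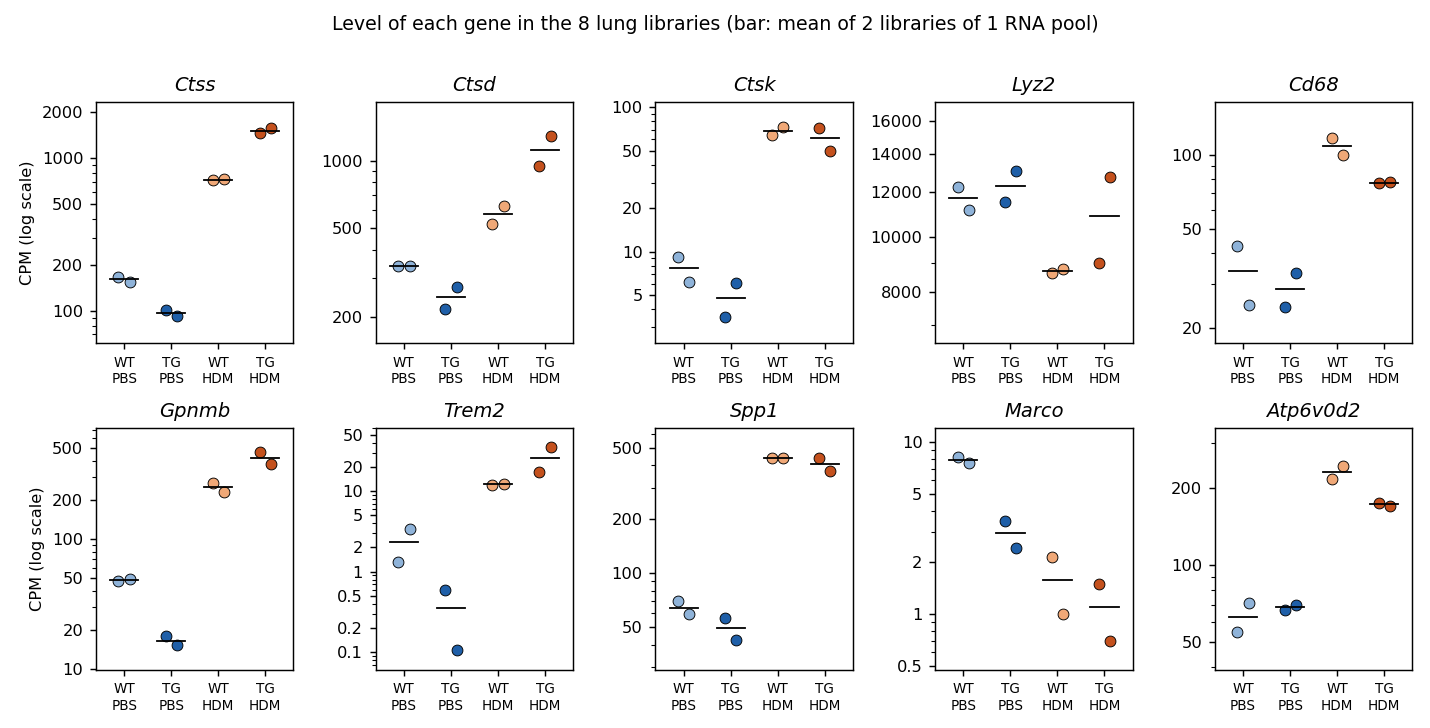
Level of each of the 10 genes in the 8 lung libraries, in CPM on a log axis whose range differs between panels. Points are the 2 libraries of a group and bars their mean. Ctss, Ctsd and Gpnmb were lowest in DDAH1-transgenic (TG) PBS and highest in TG HDM libraries, whereas Cd68 and Atp6v0d2 were highest in WT HDM libraries.

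Levels of different genes were compared as mean CPM per kilobase of transcript. In WT PBS libraries the order was Lyz2 (8902), Ctsd (159), Ctss (118), Spp1 (42.7), Cd68 (27.5), Atp6v0d2 (24.8), Gpnmb (13.1), Ctsk (5.05), Marco (4.11) and Trem2 (2.14). Cd68 and Atp6v0d2 overlapped between their libraries, as did Ctsk and Marco, so the order within these pairs was not resolved. In DDAH1-transgenic HDM libraries Lyz2 (8266) was followed by Ctss (1114), Ctsd (526), Spp1 (268), Gpnmb (114), Atp6v0d2 (68.0), Cd68 (62.8), Ctsk (40.5), Trem2 (23.9) and Marco (0.570). Neighbours in this second order did not overlap between libraries. In WT HDM libraries Spp1 (290.1 and 293 CPM per kilobase) and Ctsd (246 and 294) overlapped. Reads were counted in coding regions, so these per-length levels are approximate. Per kilobase of coding sequence, Atp6v0d2 (60.0) stood above Cd68 (34.6) in the WT PBS means, the reverse of the order above.

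The first question was how the lungs of DDAH1-transgenic and WT mice differed without allergen. Under PBS, Gpnmb and Ctss were lower in DDAH1-transgenic than in WT mice. Gpnmb was at 16.4 ± 1.88 against 48.5 ± 1.19 CPM (mean ± SD of 2 libraries), with a log2 fold change of -1.57 (SE 0.29, adjusted p = 0.0103), which is 2.97-fold lower. Ctss was at 96.2 ± 6.13 against 160.5 ± 7.57 CPM, with a log2 fold change of -0.75 (SE 0.16, adjusted p = 0.0338), which is 1.68-fold lower. SE is the standard error of the log2 fold change. Adjusted p-values here and below come from the quasi-likelihood test of edgeR, adjusted after Benjamini and Hochberg over all genes tested, 14926 in this comparison, unless DESeq2 is named. With an adjusted p under 0.05, 2 of the 10 members were lower, whereas 0.375% of all genes tested were lower, 0.281% were higher and 0.657% differed in either direction. Of the other members, Ctsd was at -0.48 (SE 0.14, adjusted p = 0.156), Trem2 at -2.68 (SE 1.16, adjusted p = 0.442) and Marco at -1.42 (SE 0.63, adjusted p = 0.458) on the log2 scale. Ctsd passed the test with no low-count filter (adjusted p = 0.0431) and without DDAH1-transgenic PBS replicate 2 (adjusted p = 0.0122). Spp1 (-0.39), Ctsk (-0.69), Cd68 (-0.24), Lyz2 (0.06) and Atp6v0d2 (0.11) did not pass the test. The DDAH1-transgenic libraries lay below both WT libraries for 7 members (Ctss, Ctsk, Ctsd, Gpnmb, Trem2, Spp1 and Marco), as for 20.4% of all genes tested, and above both for 0 members, as for 20.0%. The median log2 fold change of the 10 members was -0.59, and that of all genes tested was 0.00.

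The 2 calls were close to the threshold. Without 1 or the other WT PBS library, adjusted p was 0.0606 and 0.0529 for Gpnmb (log2 fold changes -1.58 and -1.55), and 0.33 and 0.111 for Ctss. Ctss also lost its call without DDAH1-transgenic PBS replicate 2 (adjusted p = 0.0541) and with an offset for gene length (adjusted p = 0.0744).

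Few genes that act with the 10 members differed between genotypes under PBS. Among 103 distinct genes of 8 lists (other cathepsins, other hydrolases, lysosomal membrane proteins, other vacuolar ATPase subunits, MiT/TFE factors, lipid handling, TREM2 partners and osteopontin receptors), edgeR called 0, with 5 higher and 12 lower at an unadjusted p under 0.05. Apoe, a lipid carrier gene, stands in 2 of the lists (lipid handling and TREM2 partners) and was counted once in totals over the 103 genes. DESeq2 called 1 higher and 2 lower. Their median log2 fold change was -0.01. Neutrophil markers moved in the direction of Gpnmb and Ctss: 3 of 7 tested were lower in DDAH1-transgenic mice, with S100a9 at -3.77 (SE 0.34, adjusted p = 3.89e-06). The 7 markers summed to 420.0 to 438 CPM in WT PBS and 182 to 208 CPM in DDAH1-transgenic PBS libraries, where 1 of them, Camp, had no count. Their part in the lower levels of Gpnmb and Ctss was not tested. Of the 7 general macrophage markers, 0 were called by edgeR, with 1 higher and 3 lower at an unadjusted p under 0.05, and DESeq2 called 1 lower. Their median log2 fold change was -0.79. Of the 7 alveolar type 2 markers 1 was higher, the surfactant protein gene Sftpa1 (0.42, SE 0.08, adjusted p = 0.0223), a call lost without 1 or the other WT PBS library and in the fit of all 8 libraries.

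The next question was how the genotypes differed under allergen. Under HDM, Ctss and Ctsd were higher in DDAH1-transgenic than in WT mice, and their PBS estimates had been below 0. Ctss was 1510.2 ± 70.8 against 718 ± 6.80 CPM, with a log2 fold change of 1.11 (SE 0.15, adjusted p = 0.00249), which is 2.16-fold higher. Ctsd was 1119 ± 242 against 574 ± 73.4 CPM, with a log2 fold change of 1.00 (SE 0.18, adjusted p = 0.0158), which is 2.00-fold higher. These 2 of the 10 members were called higher, beside 1.84% of the 15191 genes tested that were higher, 0.599% that were lower and 2.44% that differed in either direction. Gpnmb, at 423 ± 60.9 against 250.2 ± 29.8 CPM, just missed the threshold with a log2 fold change of 0.80 (SE 0.19, adjusted p = 0.0563). DESeq2 called it (adjusted p = 0.00617), as did the fits without DDAH1-transgenic HDM replicate 1 (adjusted p = 0.0465) and without replicate 2 (adjusted p = 3.12e-05), and over all 11 alternatives its adjusted p ranged from 3.12e-05 to 0.479.

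The other members did not pass the test, and their estimates pointed both ways. Trem2 was at 1.14 (SE 0.44, adjusted p = 0.221) and Lyz2 at 0.36 (SE 0.15, adjusted p = 0.253) on the log2 scale. Lyz2 passed without the smallest library, DDAH1-transgenic HDM replicate 1 (log2 fold change 0.57, adjusted p = 2.23e-07), and was at -0.01 with the length offset. Trem2 passed without the same library (log2 fold change 1.54, adjusted p = 0.0493). Estimates for Cd68 (-0.46, SE 0.22, adjusted p = 0.34) and Atp6v0d2 (-0.37, SE 0.19, adjusted p = 0.361) were below 0. Those for Spp1 (-0.08, SE 0.18) and Ctsk (-0.12, SE 0.27) lay within 1 standard error of 0, and that for Marco was -0.50 (adjusted p = 0.898). The groups did not overlap for 5 members that were higher in DDAH1-transgenic mice (Ctss, Ctsd, Gpnmb, Trem2 and Lyz2), as for 23.2% of all genes tested, nor for 2 that were lower (Cd68 and Atp6v0d2), as for 25.0%. The median log2 fold change of the members was 0.14, and that of all genes tested was 0.01.

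Both calls rested on both WT HDM libraries. Without replicate 1 or replicate 2 of that group, adjusted p was 0.226 and 0.142 for Ctss and 0.378 and 0.194 for Ctsd. In this comparison log2 fold changes fell with transcript length (Spearman's rho = -0.281 across 14454 genes, which are not independent replicates). With an offset for length, Ctss was at 0.77 (adjusted p = 0.0221) and Ctsd at 0.87 (adjusted p = 0.0338), and the 279 genes called higher and 91 lower became 90 and 76.

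**Figure D2:**
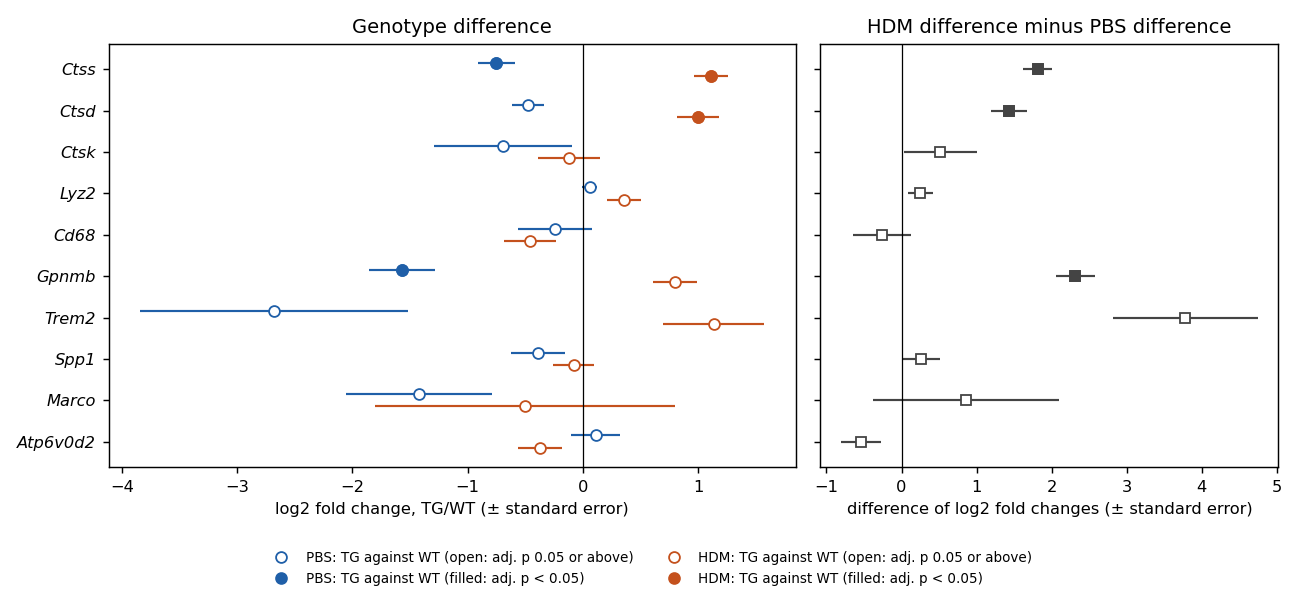
Log2 fold change of DDAH1-transgenic (TG) against WT mice for each gene under PBS (blue) and HDM (orange), left, and the HDM difference minus the PBS difference from 1 fit of all 8 libraries, right. Bars are standard errors, and filled symbols have an adjusted p under 0.05. Ctss, Ctsd and Gpnmb lie left of 0 under PBS and right of 0 under HDM.

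Some genes of the same pathways were also higher in DDAH1-transgenic mice under HDM. Of the 103 list genes, 11 were higher and none lower by edgeR, with 6 lower at an unadjusted p under 0.05 and none lower by DESeq2, and their median was 0.01. With the length offset 4 were called. The 11 were 2 of 10 other cathepsins, 1 of 32 other hydrolases and cofactors, 2 of 11 lysosomal membrane proteins, 2 of 17 other vacuolar ATPase subunits, 3 of 16 lipid genes and 2 of 7 TREM2 partners, with Apoe (1.01, adjusted p = 0.0382) in both of the last lists. With the offset no lipid gene and no TREM2 partner was called. Tyrobp, which encodes the adaptor that carries the TREM2 signal, was at 121 and 189 against 44.9 and 63.7 CPM, a difference of 1.55 (SE 0.27, adjusted p = 0.0125) on the log2 scale. Ctsz, another cathepsin, was at 1.13 (SE 0.22, adjusted p = 0.0186), and Npc2, which hands cholesterol out of the lysosome, at 0.77 (SE 0.17, adjusted p = 0.0367). Laptm4a, a lysosomal membrane protein, was at 1.80 (SE 0.28, adjusted p = 0.00729), with 681 and 342 CPM in the 2 DDAH1-transgenic libraries. The pump subunit Atp6v1g1 was at 1.45 (SE 0.25, adjusted p = 0.00998) and the fatty acid binding protein gene Fabp5 at 1.14 (SE 0.20, adjusted p = 0.0123). Each of these 6 lost its call without 1 or the other WT HDM library, and Tyrobp, Ctsz, Atp6v1g1 and Fabp5 also with the length offset.

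Markers of macrophage subsets gave few calls between genotypes under HDM. Of the alveolar macrophage markers 1 of 11 tested was lower, Chil3, at 3266 and 4369 CPM against 8919.8 and 9236 CPM (-1.21, SE 0.14, adjusted p = 0.00157). At an unadjusted p under 0.05, 3 of these markers were lower and 0 higher by edgeR. DESeq2 and the length offset each called 2 lower and 0 higher. Of 5 osteoclast markers tested 1 was lower, Ocstamp, a fusion protein of osteoclasts and giant macrophages, at 0.599 and 2.79 against 16.7 and 26.9 CPM (-3.56, SE 0.67, adjusted p = 0.0182). Of the 7 general macrophage markers 0 were called by edgeR, with 2 higher and 0 lower at an unadjusted p under 0.05, and DESeq2 called 1 higher. Chil3 and Ocstamp lost their calls without 1 or the other WT HDM library. Of 5 fibroblast markers 1 was lower, Col1a1 (-1.09, SE 0.20, adjusted p = 0.0178), which was not called with the length offset or without 1 or the other WT HDM library. Of 5 neutrophil markers tested 0 were called by either tool, with 2 higher at an unadjusted p under 0.05. The part of these cells in the genotype differences of Ctss and Ctsd was not tested.

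The contrast of the genotype differences under HDM and PBS also sets pools with female levels of Xist and Ddx3y against pools with male levels. It was tested in 1 fit of all 8 libraries. It was above 0 for Gpnmb at 2.32 (SE 0.26, adjusted p = 4.01e-05), for Ctss at 1.81 (SE 0.19, adjusted p = 1.71e-05) and for Ctsd at 1.43 (SE 0.24, adjusted p = 0.00281). These were 3 of the 10 members, beside 1.05% of the 15868 genes tested called above 0, 0.706% called below 0 and 1.76% called in all. All 3 kept their calls in each of the 14 alternatives, with values of 2.16 to 2.45 for Gpnmb, 1.42 to 1.88 for Ctss and 1.18 to 1.63 for Ctsd. Trem2 had the largest estimate of the members, 3.78 (SE 0.96, adjusted p = 0.0524), but rests on few counts in PBS libraries. It passed under 5 of the 14 alternatives, with an adjusted p between 0.00316 and 0.265. Lyz2 (0.25, SE 0.17, adjusted p = 0.535) passed only without DDAH1-transgenic HDM replicate 1 (0.48, adjusted p = 0.00974). The estimates for Ctsk (0.52, SE 0.48), Spp1 (0.26, 0.25), Cd68 (-0.26, 0.39), Atp6v0d2 (-0.54, 0.27) and Marco (0.85, 1.24) did not pass. Of the 103 list genes, 5 were called above 0 and 0 below by edgeR, with 8 below at an unadjusted p under 0.05 and 3 by DESeq2. These were Tyrobp (2.49, SE 0.43, adjusted p = 0.00345), Fabp4, a fatty acid binding protein gene (3.59, SE 0.61, adjusted p = 0.00339), Ctsz (1.67, SE 0.32, adjusted p = 0.00829), Laptm4a (1.61, SE 0.32, adjusted p = 0.0112) and Fabp5. Ctsz and Laptm4a lost their calls with the length offset (adjusted p = 0.0564 and 0.0557), as did Fabp5. Laptm4a also lost its call without DDAH1-transgenic PBS replicate 2. With the length offset 4 list genes were called above 0 and 1 below. Marker genes of other lists also differed. Of 7 neutrophil markers 2 were above 0, led by S100a9 (5.03, SE 0.61, adjusted p = 9.00e-05), and of the 7 general macrophage markers 1, Adgre1, the gene of F4/80 (1.91, SE 0.45, adjusted p = 0.0319). Below 0 were Chil3 (-1.68, SE 0.17, adjusted p = 1.03e-05) and 2 of 7 alveolar type 2 markers, led by the surfactant protein gene Sftpb (-0.91, SE 0.21, adjusted p = 0.0327). Chil3 was the 1 alveolar macrophage marker called, while DESeq2 and the length offset each called 2 of them below 0 and 0 above. Adgre1 lost its call under 6 and Sftpb under 5 of the 14 alternatives, each by leaving out 1 library. Their part in the differences of Gpnmb, Ctss and Ctsd was not tested.

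Ratios of the counts of 2 members in the same library do not depend on how libraries are scaled. Ctss was 3.86 and 6.27 times Cd68 in the WT PBS libraries, 4.13 and 2.76 times in DDAH1-transgenic PBS, 6.09 and 7.19 times in WT HDM and 19.0 and 20.1 times in DDAH1-transgenic HDM libraries. The last group stood far above the others. Gpnmb was 0.682 and 0.837 times Spp1 in WT PBS, 0.315 and 0.357 times in DDAH1-transgenic PBS, 0.621 and 0.518 times in WT HDM and 1.06 and 1.03 times in DDAH1-transgenic HDM libraries. This ratio was lowest in DDAH1-transgenic PBS and highest in DDAH1-transgenic HDM libraries. Gpnmb was 0.868 and 0.693 times Atp6v0d2 in WT PBS, 0.265 and 0.215 times in DDAH1-transgenic PBS, 1.26 and 0.938 times in WT HDM and 2.67 and 2.23 times in DDAH1-transgenic HDM libraries. Ctss was 18.1 and 25.4 times Ctsk in WT PBS, 28.8 and 15.2 times in DDAH1-transgenic PBS, 11.1 and 9.96 times in WT HDM and 20.2 and 31.1 times in DDAH1-transgenic HDM libraries, and here DDAH1-transgenic HDM overlapped with both PBS groups. Ctsd was 7.86 and 13.6 times Cd68 in WT PBS and 8.90 and 8.18 times in DDAH1-transgenic PBS libraries. Under HDM it was 4.46 and 6.23 times in WT and 12.3 and 16.6 times in DDAH1-transgenic libraries, which overlapped with WT PBS. A ratio shows unequal levels of 2 genes and not which of them changed. These ratios reuse the counts of the tests above and are not separate evidence.

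**Figure D3:**
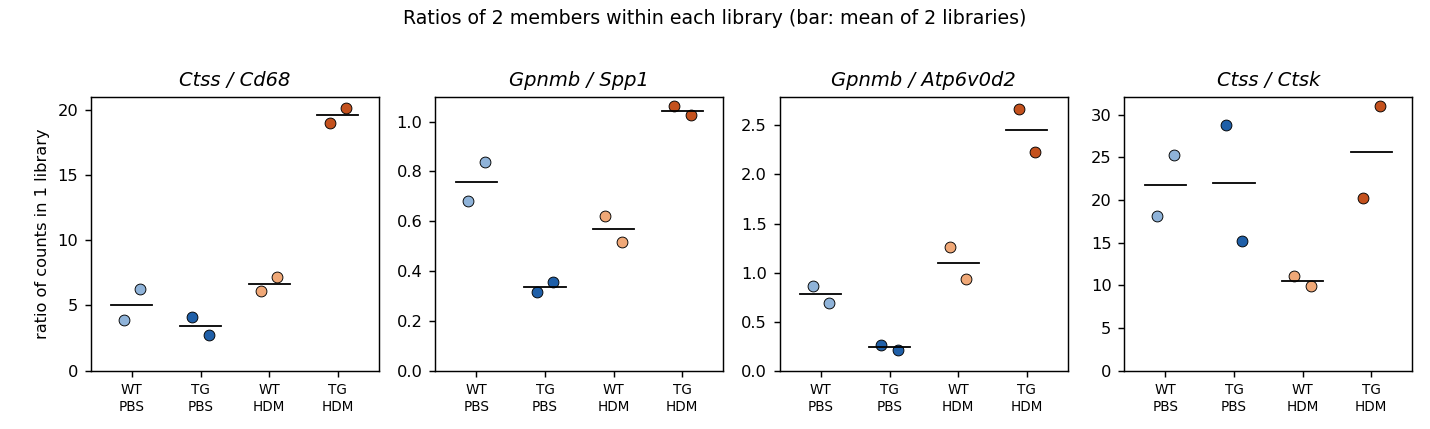
Ratio of the counts of 2 members within each library, on linear axes from 0. Points are libraries and bars the mean of the 2 libraries of a group. The pair Ctsd over Cd68 is not drawn. Ctss over Cd68 was 19.0 and 20.1 in TG HDM libraries and at most 7.19 in the other groups.

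HDM exposure was then compared with PBS within each genotype, which by Xist and Ddx3y also compares female with male pools. In WT mice 8 members rose and Lyz2 fell, where 4.44% of the 15123 genes tested rose, 2.3% fell and 6.74% changed in either direction. Ctsk was at 68.3 ± 6.04 CPM after HDM against 7.63 ± 2.14 CPM, with a log2 fold change of 3.17 (SE 0.30, adjusted p = 1.34e-05). Spp1 rose by 2.77 on the log2 scale (adjusted p = 4.56e-08), Gpnmb by 2.37 (adjusted p = 5.56e-07), Ctss by 2.16 (adjusted p = 7.80e-08) and Atp6v0d2 by 1.86 (adjusted p = 1.08e-05). Trem2 rose by 2.36 (SE 0.62, adjusted p = 0.0359), a call that was lost without WT PBS replicate 1 (adjusted p = 0.18) and missed with the length offset (adjusted p = 0.0501). Cd68 rose by 1.69 (adjusted p = 0.000847) and Ctsd by 0.77 (adjusted p = 0.00194). Lyz2 was at 8708 ± 109.8 CPM after HDM against 11715 ± 787 CPM, a difference of -0.43 (SE 0.06, adjusted p = 0.000774) on the log2 scale. Marco was at -2.32 (SE 0.72, adjusted p = 0.076) on the log2 scale, which DESeq2 called (adjusted p = 0.0339). The groups did not overlap for any of the 10 members, 8 of which were higher and 2 lower after HDM, as were 25.0% and 24.7% of all genes tested. The median of the members was 2.01, and that of all genes tested was 0.02.

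Their pathways rose with them in part. In WT mice 32 of the 103 list genes rose, with a median log2 fold change of 0.52. By edgeR none fell, with 7 lower at an unadjusted p under 0.05 and 3 lower by DESeq2. The 32 hydrolases and cofactors held 13 that rose, among them Psap, which encodes the saposins that help degrade sphingolipids (1.55, SE 0.12, adjusted p = 1.06e-06). Of the 10 other cathepsins 4 rose, led by Ctsb (1.37, SE 0.12, adjusted p = 3.51e-06). The vacuolar ATPase subunits held 4 of 17 that rose, such as Atp6v0c (0.97, adjusted p = 0.00395), and the membrane proteins 2 of 11, such as Laptm5 (0.95, adjusted p = 0.000605). Of the 4 MiT/TFE factors 2 rose, with Mitf at 1.67 (SE 0.42, adjusted p = 0.0283), not called without WT PBS replicate 1. Of the 16 lipid genes 4 rose, led by Lgals3 (1.87, adjusted p = 1.44e-05), of the 7 TREM2 partners only Syk (1.02, adjusted p = 0.0196, not called without WT PBS replicate 1), and of the 7 osteopontin receptors 2, led by Cd44 (0.88, adjusted p = 0.00065). Macrophage markers rose beside them: Chil3 by 4.58 (adjusted p = 8.70e-14), Mrc1 by 1.72 (adjusted p = 3.26e-05) and the complement gene C1qb by 2.12 (adjusted p = 1.34e-05). In all, 3 of 7 general, 4 of 11 alveolar and 5 of 10 interstitial macrophage and monocyte markers tested rose, and Lyve1 of the interstitial markers fell (-0.79, SE 0.14, adjusted p = 0.00249). Fabp1 of the alveolar markers was called lower (adjusted p = 0.0469), but had 2 and 0 counts after HDM and was not called under 4 of 11 alternatives. Neutrophil markers went the other way, and 4 of 7 fell, led by S100a8 (-2.14, SE 0.28, adjusted p = 0.00024). Of 4 eosinophil markers tested 1 rose, Ccr3, from 6 and 0 to 138 and 16 counts (adjusted p = 0.0494), a call lost under 4 of 11 alternatives. Among 7 alveolar type 2 markers Sftpa1 rose by 0.61 (adjusted p = 0.000504) and 2 fell, led by Sftpc (-0.62, SE 0.09, adjusted p = 0.00048). Of 5 osteoclast markers tested 3 rose, with Ocstamp going from at most 1 count per library to 187 and 268 counts. The part of macrophage number in the rise of the members was not tested.

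In DDAH1-transgenic mice the same 8 members rose after HDM. Here 8.43% of the 15086 genes tested rose, 5.35% fell and 13.8% changed in either direction. Gpnmb was at 423 ± 60.9 CPM after HDM against 16.4 ± 1.88 CPM, with a log2 fold change of 4.71 (SE 0.24, adjusted p = 2.97e-07). Ctss rose by 3.996 (SE 0.18, adjusted p = 1.03e-07) and Ctsd by 2.21 (SE 0.20, adjusted p = 3.64e-05). Trem2 rose from 6 and 1 counts to 114 and 450 counts, and its log2 fold change of 6.15 (SE 0.75, adjusted p = 0.000312) depends on the few counts under PBS. Ctsk rose by 3.71 (adjusted p = 0.000142) and Spp1 by 3.06 (adjusted p = 8.98e-06). Cd68 rose by 1.44 (adjusted p = 0.0063), but not past the threshold with the length offset (0.80, adjusted p = 0.11) or without DDAH1-transgenic PBS replicate 1 (1.23, adjusted p = 0.123) or replicate 2 (1.68, adjusted p = 0.0745). Atp6v0d2 rose by 1.35 (adjusted p = 0.00171), with an adjusted p of 0.0764 and 0.0765 without the one or the other of these libraries. Lyz2 (-0.16, SE 0.15, adjusted p = 0.549) and Marco (-1.42, SE 1.12, adjusted p = 0.457) did not pass the test. With the length offset Lyz2 was called lower (-0.76, adjusted p = 0.00311), as it was without DDAH1-transgenic HDM replicate 2 (-0.43, adjusted p = 0.00192). The groups did not overlap for these 8 members, as for 28.8% of all genes tested that were higher, nor for Marco, which was lower, as were 28.0%. The median of the members was 2.64, and that of all genes tested was 0.03.

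**Figure D4:**
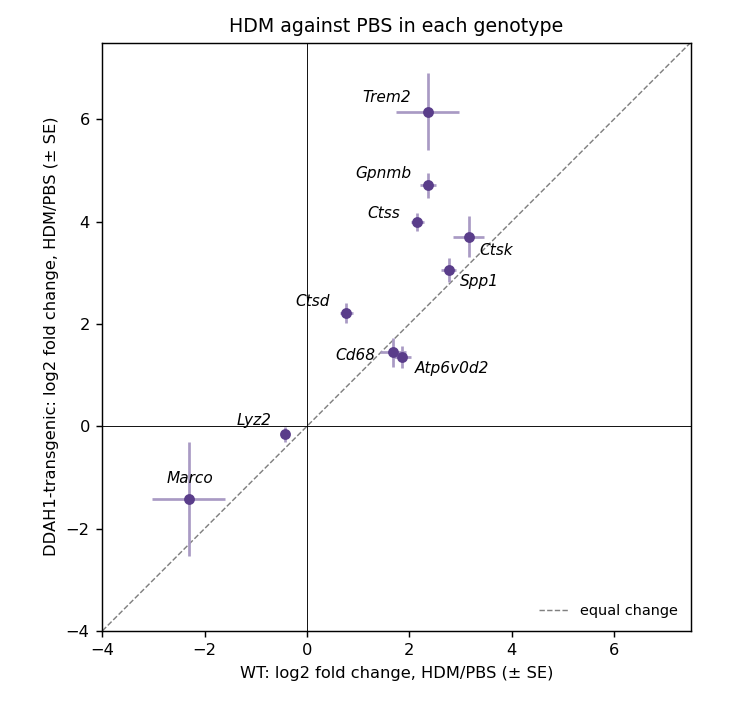
Log2 fold change of HDM against PBS in WT mice (horizontal) and in DDAH1-transgenic mice (vertical) for each of the 10 genes, with standard errors. The dashed line marks equal change. Trem2, Gpnmb, Ctss and Ctsd lie above it, whereas Cd68 (1.69 and 1.44) and Atp6v0d2 (1.86 and 1.35) lie slightly below. The axes rest on different libraries and separate fits. The gap from the line is close to the difference tested above in 1 fit of all 8 libraries, but not equal to it.

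Of the 103 list genes, 41 rose and 5 fell after HDM in DDAH1-transgenic mice, with a median of 0.69. Log2 fold changes here fell with transcript length (Spearman's rho = -0.331 across 14351 genes, which are not independent replicates), and with the length offset 33 rose and 5 fell. Ctsz (3.10, SE 0.25, adjusted p = 1.76e-05), Psap (2.40, SE 0.19, adjusted p = 1.42e-05), Tyrobp (2.87, SE 0.32, adjusted p = 0.000146) and Fabp5 (2.65, SE 0.22, adjusted p = 1.77e-05) rose, and 9 of 17 other vacuolar ATPase subunits did so, such as Tcirg1, the subunit of the osteoclast pump (2.06, SE 0.33, adjusted p = 0.00178). With the offset 4 of the 17 rose. The tetraspanin gene Cd63 (2.11, adjusted p = 0.000667), the MiT/TFE factor Tfec (2.75, adjusted p = 0.0149) and the integrin gene Itga4 (1.14, adjusted p = 0.00387) also rose, but Tcirg1, Cd63, Tfec and Itga4 were not called without DDAH1-transgenic PBS replicate 2. Genes of the same lists that fell included Ids, a hydrolase of heparan sulfate (-0.97, adjusted p = 0.0035), Lamp1, a main protein of the lysosomal membrane (-0.59, adjusted p = 0.0429), the integrin gene Itga9 (-1.07, adjusted p = 0.00838) and Cd36, a fatty acid receptor that capillary endothelium also expresses (-0.96, adjusted p = 0.00235). The falls of Ids, Lamp1, Itga9 and Cd36 were not called without 1 or the other DDAH1-transgenic PBS library. Of 7 general macrophage markers 6 rose, such as Adgre1, the gene of F4/80 (2.03, SE 0.33, adjusted p = 0.00192), and of 9 interstitial macrophage and monocyte markers tested 7 rose, such as C1qb (2.12, adjusted p = 0.000197), and Lyve1 fell (-1.44, SE 0.20, adjusted p = 0.000667). With the length offset the 6 became 4 and the 7 became 6. Of 11 alveolar macrophage markers 3 rose, led by Chil3 (2.93, SE 0.17, adjusted p = 9.15e-07), and Cidec fell (-1.70, adjusted p = 0.043). Of 4 osteoclast markers tested 2 rose, led by Acp5 (3.27, SE 0.46, adjusted p = 0.000798). Markers of other cells changed as well. Of 5 neutrophil markers tested 1 rose, S100a9 (2.66, SE 0.51, adjusted p = 0.00504), and of 3 eosinophil markers 1, Prg2 (4.18, SE 0.97, adjusted p = 0.0143). Those that fell were 2 of 5 fibroblast markers, 1 of 6 dendritic cell markers, Xcr1 (-0.77, adjusted p = 0.0297), and 2 of 7 alveolar type 2 markers, led by Sftpb (-0.92, SE 0.18, adjusted p = 0.00557). With the offset 1 of the fibroblast and 4 of the alveolar type 2 markers fell. Adgre1, Cidec, Prg2, Xcr1, Sftpb and Pdgfra lost their calls without 1 or the other DDAH1-transgenic PBS library, and S100a9 and Lyve1 without replicate 2 of that group. Their part in the rise of the members was not tested.

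Across the 4 group means of log2 CPM, the genes whose centred profiles lay nearest to the mean profile of the 10 members were Clec4a2, Trim59, H2-Ob, Ikzf3 and Cd79b, with root-mean-square distances from 0.0524 to 0.102 (log2) among 9551 genes with a mean of at least 10 CPM. Clec4a2, for example, had group means of 10.7 CPM in WT PBS, 6.15 in DDAH1-transgenic PBS, 28.8 in WT HDM and 32.6 in DDAH1-transgenic HDM. Nearest to Gpnmb were Slpi, Mir147, AA467197, Il21r and Ly6d, at distances from 0.163 to 0.225. Slpi went from 58.2 to 20.6 CPM between the genotypes under PBS and from 322 to 683 CPM under HDM. Nearest to Ctss were Reg3g, Jchain, Cd52, Cd200r4 and Fcrla, at distances from 0.133 to 0.274. Jchain, which joins immunoglobulin chains in plasma cells, had means of 123.9 and 92.7 CPM in WT and DDAH1-transgenic mice under PBS and of 740.2 and 1749 CPM under HDM. A profile of 4 means holds few degrees of freedom, and many genes can lie close to it.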

How the data were processed

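RNA-Seq read counts of 8 mouse lung libraries were analyzed, 2 libraries from 1 RNA pool of 4 mice in each of the 4 groups. RNA was amplified and sequenced by the authors as single reads of 50 cycles. TopHat placed the reads on mm10, and those in coding regions were summed per gene. The counts the authors deposited are raw and cover 23469 genes. Whether counting used strand and the versions of aligner and annotation are not given in the sources used here. The labels list bcl2fastq, CASAVA 1.8, TopHat and DESeq. Amplification copies were counted as reads, and all errors here cover the spread between libraries of a pool only. Total counts were 5694928 to 11929374 per library.

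Entrez identifiers were named from RefSeq (GRCm38.p6, 23372 matched). Transcript lengths came from GENCODE M21. The quasi-likelihood test of edgeR 4.0.16 (R 4.3.3; TMM, filterByExpr with a count minimum of 10) was run on the 4 libraries of each comparison, and for the interaction on all 8, with a threshold of 0.05 on p-values adjusted after Benjamini and Hochberg. All 10 members passed the low-count filter in every comparison. The members and the lists were chosen with earlier results of these data known. Text beyond the members names, for each list and comparison, the called gene with the smallest adjusted p in each direction, and the 5 genes with the nearest profiles to the members, Gpnmb and Ctss. Apoe, and Fabp5 in the interaction, were named with their values known. Of the list genes 1 (Ly6g) was not found in the table. Log2 fold changes are those that edgeR reports at its default settings, with standard errors as the size divided by the square root of F. The script was tested on simulated data.

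Alternatives were an offset for transcript length (loess, span 0.5), the replicate number as a block, both together, 1 fit of all 8 libraries, testing without the low-count filter, RLE size factors, DESeq2 1.42.0, and leaving out each library. For list genes the alternatives were added after the data had been seen. Protein sequences were not analysed here.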

Additional observations from a re-analysis of the deposited data

Results flagged for a closer look

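For 3 members the genotype difference under HDM differed from that under PBS by the interaction test of edgeR on all 8 libraries. By Xist and Ddx3y this contrast also sets female against male pools, and sex and HDM cannot be told apart. For Ctss the difference of log2 fold changes was 1.81 (adjusted p = 1.71e-05), from -0.75 under PBS and 1.11 under HDM. For Ctsd it was 1.43 (adjusted p = 0.00281), from -0.48 and 1.00. For Gpnmb it was 2.32 (adjusted p = 4.01e-05), from -1.57 and 0.80. In each case both DDAH1-transgenic libraries lay below both WT libraries under PBS and above them under HDM. Of all genes tested, 20.4% lay below in this way under PBS and 23.2% above under HDM. The share of genes that did both was not counted. The libraries labelled DDAH1-transgenic HDM had less Ddah1 than the WT HDM libraries, in counts of the mouse gene that may miss the transgene. This difference of Ddah1 did not pass the test of edgeR (log2 fold change -0.32, adjusted p = 0.637), and its bearing on the 3 members was not tested.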

How the results depend on the processing

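Of 580 refits of a member in a comparison, 520 kept direction and side of the threshold, 24 passed where the reported fit did not, 20 no longer passed and 16 changed sign. The interaction calls of Ctss, Ctsd and Gpnmb, and the calls of Ctss, Ctsk, Ctsd, Gpnmb and Spp1 for HDM against PBS in both genotypes, held in every alternative. All values that changed sign were of members that were not called. Without 1 library, log2 fold changes between genotypes under PBS ranged from -0.594 to 0.218 for Cd68, -0.018 to 0.156 for Lyz2 and -0.054 to 0.308 for Atp6v0d2. Under HDM they ranged from -0.423 to 0.129 for Ctsk, -0.227 to 0.048 for Spp1 and -1.145 to 0.132 for Marco, for HDM against PBS in DDAH1-transgenic mice from -0.435 to 0.054 for Lyz2, and for the interaction from -0.718 to 0.086 for Cd68 and -0.030 to 0.481 for Lyz2. With the length offset Lyz2 was -0.013 between genotypes under HDM and -0.178 in the interaction, and Spp1 -0.062 in the interaction. With offset and replicate block these were -0.021, -0.175 and -0.079.

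Counts of genes called moved more. Between genotypes under PBS 98 genes became 223 with DESeq2, 306 with no low-count filter, 168 with offset and replicate block, and 75 to 432 without 1 library (432 and 275 without DDAH1-transgenic PBS replicate 1 and 2). The 2 members became 1 with the offset and 0 to 2 without 1 library (0 without either WT PBS library). Replicate numbers did not pair the libraries, since deviations of same-numbered libraries correlated between -0.0214 and 0.0317 across 15868 genes. With the replicate number as a block, 46 genes and 0 members were called under PBS (Gpnmb adjusted p = 0.0734 and Ctss adjusted p = 0.106 by edgeR, with 4 members at an unadjusted p under 0.05, and 2 called by DESeq2 without a block) and 625 genes under HDM. Under HDM 370 genes became 922 with DESeq2, 1055 with no filter, 771 in 1 fit of all 8 libraries, 166 with the offset and 6 to 1595 without 1 library (6 and 20 without WT HDM replicate 1 and 2, 612 and 1595 without DDAH1-transgenic HDM replicate 1 and 2), and the 2 members became 0 to 5. For HDM in WT mice 1020 genes became 1588 with no filter and 652 to 1661 without 1 library (652 without WT PBS replicate 2, 1661 without WT HDM replicate 1), and in DDAH1-transgenic mice 2079 became 277 to 2676 (404 and 277 without DDAH1-transgenic PBS replicate 1 and 2). With the offset the 1272 that rose and 807 that fell there became 729 and 714. For the interaction 279 genes became 680 with DESeq2, 675 with no filter and 138 to 723 without 1 library (162 and 138 without WT PBS replicate 1 and 2, 146 without DDAH1-transgenic PBS replicate 2, 723 without DDAH1-transgenic HDM replicate 2), and 3 members became 3 to 5. With the offset 167 higher and 112 lower genes became 78 and 130. A fit without 1 library takes the lone library to vary like the other group. The causes were not tested. For the list genes named for the smallest adjusted p, alternatives were added after the data had been seen. Of their 695 refits, 607 kept the call and none changed sign. Picking genes by the smallest adjusted p favours refits that hold, so this share does not describe the other list genes. Low counts limit Trem2 and Marco, with 1 to 41 counts in PBS libraries for Trem2 and 9 to 24 in HDM libraries for Marco.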
